A study of Mus musculus with 6 samples.

Results

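Mitotic genes were the 34 genes of a fixed list that drive or mark cell division, from the cyclins and kinases that start mitosis to the motors and scaffolds that end it. Each was found by its symbol on exactly 1 line of a table of 22381 genes. The table compares LSK cells, a bone marrow fraction defined by lack of lineage markers and by the surface proteins Sca-1 and c-Kit, which holds blood stem cells and early multipotent progenitors. RNA of 3 samples labelled Tgif1-/- and 3 samples labelled WT (Tgif1+/+), all from C57BL/6 mice aged 8 to 12 weeks, was sequenced. The protein made from Tgif1 is a homeodomain repressor of transcription with a part in TGF-beta signalling. The labels name no treatment, do not say which part of Tgif1 is deleted or whether the deletion reaches all cells of the mouse, and leave unsaid whether each sample is a separate animal, so p-values may measure technical spread only. The table gives 1 value per group in FPKM (fragments scaled to transcript length and library size), so values per sample, their spread and the depth are unknown, and every error given here belongs to the authors' Cuffdiff model. Cuffdiff could not complete its test on some lines, which carry the status FAIL and keep their 2 group values without an error. Of the 34 mitotic genes, 20 were tested and 14 had that status. The series title names quiescence of blood stem cells, and the comparison below asks whether transcripts of dividing cells differed between the groups.

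The targeted gene does not separate the groups in this table. Tgif1 stood at 88.6 FPKM under the Tgif1-/- label against 71.5 FPKM under the WT label, with a failed test, so each direction below is one between groups as labelled. Where 2 FPKM values follow each other, the group labelled Tgif1-/- comes first. The markers of the gate were present in both. Kit, which encodes c-Kit, stood at 193 FPKM under the Tgif1-/- label against 202 FPKM under the WT label, and Ly6a, which encodes Sca-1, at 120 and 88.9 FPKM. Of 6 T cell genes, Cd3d, Cd3e, Cd3g and Cd8a stayed at or under 0.677 FPKM in both groups, while Cd4 stood at 3.21 and 2.58 FPKM and Lck at 22.7 and 27.7 FPKM.

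Most blood stem cells rest outside the cell cycle, while the multipotent progenitors of the same fraction divide. Mitotic genes are known to be transcribed mainly in dividing cells, and bulk LSK RNA pools dividing and resting cells. Many of these genes are read from promoters that carry a cell cycle genes homology region (CHR), a short element bound by the MuvB core. With p130 or p107 this core forms the DREAM repressor in resting cells, and with B-Myb and FoxM1 it activates the same genes before mitosis. CCAAT boxes bound by NF-Y often lie upstream of the CHR. The products include cyclin-dependent kinase 1 and its cyclins, the Aurora and Polo kinases, the kinetochore and the spindle checkpoint that guards chromosome attachment. Among them are also the anaphase-promoting complex, which that checkpoint holds back, and kinesins that build and divide the spindle.

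The promoter sequences show what these genes share apart from their function. RefSeq promoter windows of GRCm38.p6, from 250 bases before to 50 bases after the annotated start, were matched by symbol for 30 of the 34 genes, that is all but Ccna2, Aurkb, Tpx2 and Kif20a. The windows were searched on both strands for the CHR forms TTTGAA and TTCGAA and for CCAAT, counting overlapping matches, and positions count from 1 at the first transcribed base and from -1 just before it. TTCGAA reads the same on both strands. Of the 30 genes, 24 (80%) held a CHR form, against 21.7% of 27025 genes with a window and 16.9% of the 7046 tested genes with one. A gene was counted where any of its windows held a match. A match starting within 50 bases of the start, a distance chosen after seeing the data, was found in 22 (73.3%), against 6.12% of all genes and 4.26% of tested genes. Of 85 other mitotic genes with a window, from the lists below, 40 (47.1%) held a CHR form. CCAAT was found in 22 (73.3%), against 41.1% of all genes, and 16 genes (53.3%) held at least 2 copies, against 13.3%. The other mitotic genes held CCAAT in 62.4% of cases and at least 2 copies in 34.1%. Both elements stood together in 20 of the 30 (66.7%), against 8.61% of all genes and 35.3% of the other mitotic genes. These are matches of letters and were not tested as binding sites.

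In the sequences below, CHR and CCAAT matches on either strand are in capitals (ATTGG is CCAAT on the other strand). Stretches of 4 promoters, from 120 bases before to 30 bases after the start, are shown so that the placing of the elements, which differs between them, can be read. They lie at chr9:70421525-70421674, minus strand, for Ccnb2, chr10:69352883-69353032, minus strand, for Cdk1, chr4:118437314-118437463, minus strand, for Cdc20, and chr13:100786457-100786606, minus strand, for Ccnb1. Each is written 5′ to 3′ along the gene.
Ccnb2: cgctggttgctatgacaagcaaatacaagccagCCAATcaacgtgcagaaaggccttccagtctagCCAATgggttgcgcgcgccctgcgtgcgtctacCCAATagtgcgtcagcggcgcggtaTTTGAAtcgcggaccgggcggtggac
Cdk1: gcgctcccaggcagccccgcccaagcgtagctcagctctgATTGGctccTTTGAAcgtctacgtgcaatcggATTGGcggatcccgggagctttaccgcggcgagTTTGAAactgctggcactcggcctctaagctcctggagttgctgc
Cdc20: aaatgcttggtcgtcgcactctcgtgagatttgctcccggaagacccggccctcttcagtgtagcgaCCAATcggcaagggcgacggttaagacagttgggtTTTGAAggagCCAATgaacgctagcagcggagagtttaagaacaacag
Ccnb1: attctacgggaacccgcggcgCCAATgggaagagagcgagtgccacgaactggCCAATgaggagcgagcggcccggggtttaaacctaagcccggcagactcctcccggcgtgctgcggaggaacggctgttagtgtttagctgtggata

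Ccnb2, which encodes cyclin B2, had CCAAT at -87, -54 and -21 and TTTGAA at 5, the last just inside the transcript. In Cdk1, the kinase that binds both B cyclins, the inverted CCAAT boxes stood at -80 and -48 and TTTGAA at -71 and -15. Cdc20, an activator of the anaphase-promoting complex, had TTTGAA at -18 between CCAAT boxes at -53 and -8. The window of Ccnb1, which encodes cyclin B1, held CCAAT at -99 and -67 and no CHR form, which says only that these letters are not in the window.

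Plk1 and Aurka, which encode Polo-like kinase 1 and Aurora A, carried TTTGAA further into the transcript, at 31 and 33, and a site of 30 bases of each is shown for that reason (chr7:122159453-122159482, plus strand, for Plk1, and chr2:172370521-172370550, minus strand, for Aurka).
Plk1: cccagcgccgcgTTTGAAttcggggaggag
Aurka: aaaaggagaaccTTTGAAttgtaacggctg

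**Figure D1:**
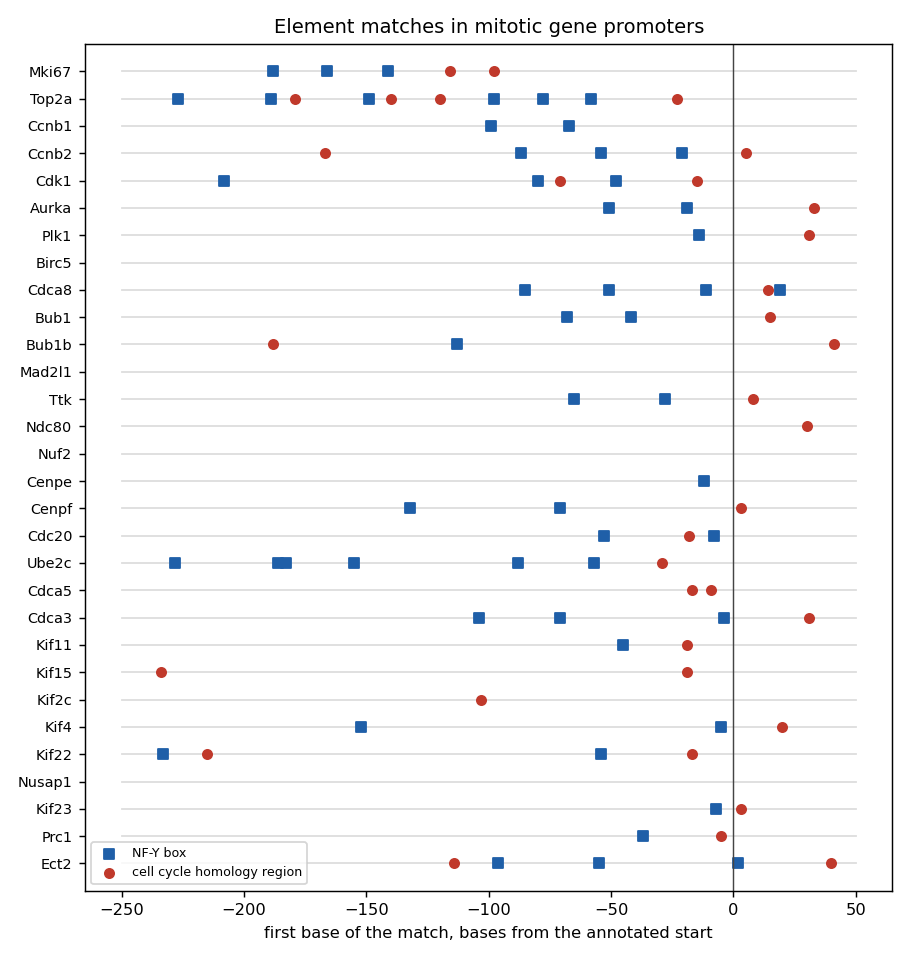
Positions of CHR forms (red circles) and CCAAT boxes (blue squares, labelled NF-Y box) in the first promoter window of 30 mitotic genes, in bases from the annotated start (vertical line); grey lines mark the window. Of the 30 genes, 22 have a CHR form starting within 50 bases of the start, and Birc5, Mad2l1, Nuf2 and Nusap1 have neither element.

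Windows of Birc5, Mad2l1, Nuf2 and Nusap1 held neither element. Top2a, which encodes topoisomerase II alpha, held 4 CHR matches and 6 CCAAT boxes, and Ube2c held 1 and 6, with 1 pair of its CCAAT matches overlapping. The 18 tested genes with a CHR form had a median log2 ratio (group labelled Tgif1-/- over group labelled wild type) of 0.00, beside -0.02 for the 1193 tested genes of the table with such a form and -0.03 for all tested genes. The 16 tested genes that carried both elements likewise had a median log2 ratio of 0.00.

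No mitotic gene passed the test between the groups. None of the 20 tested genes reached a Cuffdiff q of 0.05 in the authors' deposited table (0.662% of all 10730 tested genes did), and none had an unadjusted p under 0.05 (5.41% of all tested genes did). The deposited q was 1.00 for each of the 20. At those shares few or no calls would be counted among 20 genes, so the count alone says little. The sizes of the differences say more. Log2 ratios of the 20 genes ran from -0.19 (Mki67) to 0.34 (Ndc80), with a median of 0.02, and 11 of 20 (55%) were above 0. Over all tested genes the median was -0.03, with 42.6% above 0. Over tested genes with mean levels in the range of the mitotic genes it was -0.01, with 45.8% above 0. Summed over all 34 genes, the level was 2643 FPKM under the Tgif1-/- label against 2603 FPKM under the WT label. In bulk RNA, a change in the share of dividing cells and a change in RNA per dividing cell cannot be told apart.

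A p that misses a threshold does not show that levels were alike, so the 95% interval of each ratio was taken from the standard error that the deposited test statistic implies. All 20 intervals lay within a 2-fold change in either direction, which held for 71.2% of all tested genes and 96.8% of those with mean levels in the range of the mitotic genes (14 to 312 FPKM). Within a 1.5-fold change lay 18 of 20 (90%), against 73.6% of genes in that range, the exceptions being Ndc80 and Mki67. The median implied standard error of the 20 genes was 0.20 on the log2 scale, against 0.20 for tested genes of that range and 0.26 for all tested genes. These intervals hold as far as the model's errors do, and they do not cover the 14 genes with failed tests. They use the implied errors without the floor described at the end. That floor raises some of these errors, and the counts were not repeated with it. The share of failed tests was 41.2% among mitotic genes and 31.8% among genes of the same range.

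**Figure D2:**
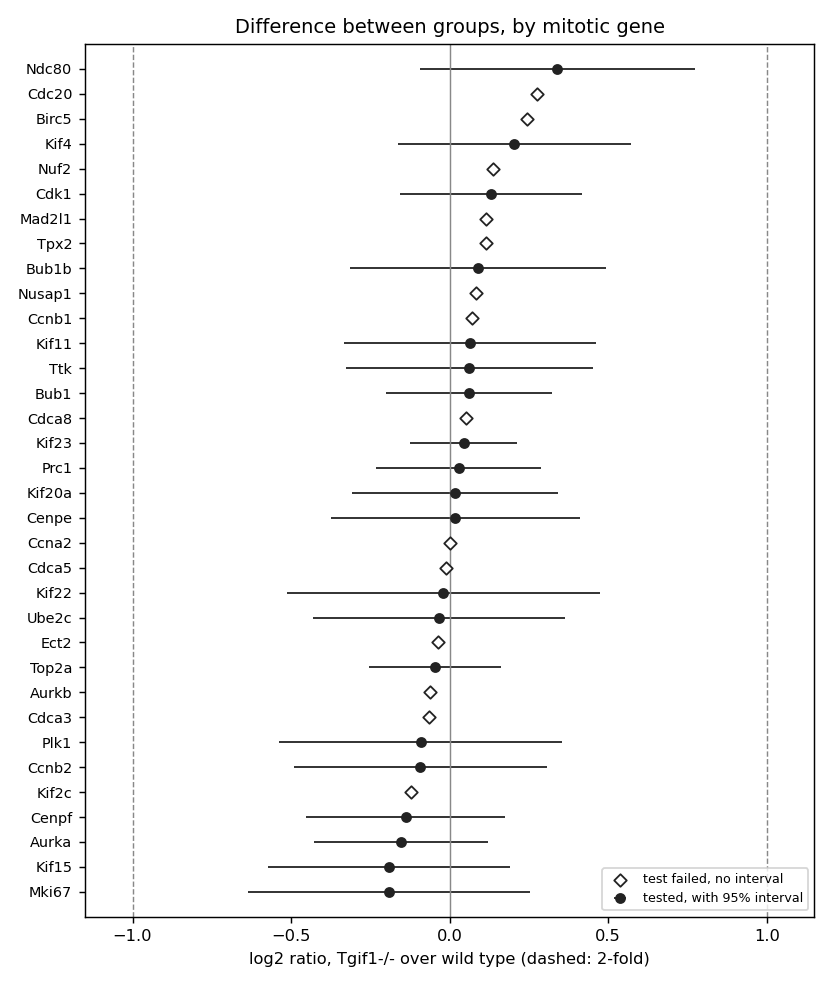
Log2 ratio (group labelled Tgif1-/- over group labelled wild type) of each of the 34 mitotic genes, ordered by size. Filled circles are the 20 tested genes with the 95% interval implied by the deposited statistic, open diamonds the 14 genes with failed tests, and dashed lines mark 2-fold; every interval crosses 0 and none reaches a dashed line.

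The general markers of dividing cells had slightly lower values under the Tgif1-/- label. Mki67, which encodes the Ki-67 protein that coats mitotic chromosomes and is lost in resting cells, stood at 84.2 FPKM there against 96.2 FPKM under the WT label. Its log2 ratio of -0.19 (implied standard error 0.23) was the lowest of the tested genes, with an interval from -0.64 to 0.25 and a p of 0.397 in the authors' deposited table. Top2a, whose enzyme untangles sister DNA, was the most abundant of the 34 genes, at 307 and 317 FPKM. Its interval was among the narrowest, from -0.25 to 0.16. On the linear scale the intervals allow Mki67 to be between 0.643 and 1.19 times its wild-type level and Top2a between 0.838 and 1.12 times.

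The cyclins and their kinase differed little and in both directions. Ccna2, which encodes the A-type cyclin that acts from DNA synthesis into early mitosis, stood at 199 FPKM in both groups. Ccnb1 stood at 84.2 FPKM under the Tgif1-/- label against 80.1 FPKM under the WT label. The tests of Ccna2 and Ccnb1 failed, so their values carry no error. Ccnb2 stood at 77.7 and 82.8 FPKM, a log2 ratio of -0.09 with an interval from -0.49 to 0.31. Cdk1 stood at 172 and 157 FPKM, with a log2 ratio of 0.13, an implied standard error of 0.15 and an interval from -0.16 to 0.42. The p of Cdk1 in the authors' deposited table was 0.373. The B cyclins and Cdk1 thus had ratios on either side of 0, and the intervals of Ccnb2 and Cdk1 both cross it.

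Of the mitotic kinases that act beside Cdk1, Aurka stood at 23.1 FPKM under the Tgif1-/- label against 25.7 FPKM under the WT label. Aurora A ripens the spindle poles, and its gene had a log2 ratio of -0.15 (implied standard error 0.14) and a p of 0.270 in the authors' deposited table (interval -0.43 to 0.12). Plk1, whose kinase acts from mitotic entry to cytokinesis, stood at 25.7 and 27.4 FPKM (interval -0.54 to 0.35). Both kinase genes were among the less abundant of the 34 and had the lower value under the Tgif1-/- label, with intervals across 0.

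The chromosomal passenger complex, which corrects faulty attachments at the centromere and later guides cytokinesis, could not be tested, since all 3 genes had failed tests. Aurkb, the Aurora kinase of the complex, stood at 167 and 175 FPKM. Birc5, which encodes survivin, stood at 76.3 FPKM under the Tgif1-/- label against 64.5 FPKM under the WT label, a log2 ratio of 0.24. Cdca8, which encodes borealin, stood at 52.4 and 50.5 FPKM. Birc5 and Cdca8 thus had the higher value under the Tgif1-/- label and Aurkb the lower. The scaffold Incenp, from the wider list below, also had a failed test, at 30.2 and 28.1 FPKM.

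Checkpoint and kinetochore genes formed the largest group, with 8 members, of which 6 were tested. Of the 8, 7 had the higher value under the Tgif1-/- label, and so did 5 of the 6 tested (42.6% of all tested genes did). This direction was not tested for the group as a set. None of the 6 was called (0.662% of all tested genes were), and among 6 genes that count says little. Bub1, which encodes a checkpoint kinase, stood at 35.3 and 33.8 FPKM, and Bub1b, which encodes its relative BubR1, at 149 and 140 FPKM. Ttk, which encodes the kinase that starts checkpoint signalling, stood at 24 and 22.9 FPKM. Mad2l1, whose product binds and holds back Cdc20, stood at 143 and 132 FPKM with a failed test. The 3 tested checkpoint genes had log2 ratios of 0.06 for Bub1, 0.09 for Bub1b and 0.06 for Ttk, all with intervals across 0. The kinetochore motor gene Cenpe was the least abundant of the 34, at 14.1 and 13.9 FPKM. Cenpf, which encodes a large kinetochore protein, was the 1 member of this group with a lower value in the group labelled Tgif1-/-, at 27.7 and 30.5 FPKM (interval -0.45 to 0.18).

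Ndc80 and Nuf2 encode partners in the complex that grips spindle microtubules. Ndc80 stood at 34.7 FPKM under the Tgif1-/- label against 27.4 FPKM under the WT label. This log2 ratio of 0.34 (implied standard error 0.22) was the highest of the 34 genes and had the smallest p of the 20 tested, 0.126, and the authors' deposited table lists its Cuffdiff q as 1.00. Its interval, from -0.09 to 0.77, reaches 1.71-fold. Nuf2, with a failed test, stood at 42.5 and 38.7 FPKM, and the other subunits of the complex, Spc24 and Spc25, at 39.6 and 36.7 FPKM and at 34.3 and 32.1 FPKM. All 4 subunits thus had higher values in the group labelled Tgif1-/-, with log2 ratios from 0.10 to 0.34. The test of Spc25 failed as well, and the intervals of Ndc80 and Spc24 (-0.30 to 0.52) cross 0. In the wider list that holds Spc24 and Spc25, 16 of 33 genes had higher values and 17 lower.

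Ndc80 is also the only 1 of the 34 genes on chromosome 17, where Tgif1 lies. In the table's coordinates, whose mouse build was not given in the sources used here, Ndc80 spans positions 71845440 to 71876197 and starts 643 kb after the end of Tgif1. Of the 34 tested genes that lie no more than 5 Mb from Tgif1, 4 were called (0.662% of all tested genes were) and all 4 were higher under the Tgif1-/- label, and Ndc80 was not among them. Over those 34 genes, 16 were higher and 18 lower, with 4 higher and 3 lower at an unadjusted Cuffdiff p below 0.05. The part of this position in the value of Ndc80 was not tested. Without Ndc80 the median log2 ratio of the tested mitotic genes was again 0.02 and the highest was 0.20.

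Genes of the anaphase-promoting complex arm are Cdc20, its mitotic activator, and Ube2c, its ubiquitin-conjugating enzyme. Cdc20 stood at 48.9 FPKM under the Tgif1-/- label against 40.4 FPKM under the WT label, a log2 ratio of 0.28. That was the largest among genes with failed tests and carries no error. Ube2c, the second most abundant of the 34 genes, stood at 205 and 210 FPKM with an interval from -0.43 to 0.36. The value of the activator was therefore higher and that of the enzyme slightly lower, without a test of the activator. Cdca5, which encodes sororin, a guard of sister chromatid cohesion, stood at 34.6 and 34.9 FPKM. Cdca3, which encodes a mitotic entry factor, stood at 57.9 and 60.5 FPKM. Tests of both these genes failed.

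Among the spindle motors, Kif11, which encodes the kinesin that pushes spindle poles apart, was the most abundant at 84.5 and 80.8 FPKM. Kif15, whose motor backs up Kif11, stood at 32.2 FPKM under the Tgif1-/- label against 36.8 FPKM under the WT label. It had a log2 ratio of -0.19 (implied standard error 0.20) and a p of 0.327 in the authors' deposited table (interval -0.57 to 0.19). Kif4, a motor of chromosome arms and the central spindle encoded on chromosome X, went the other way in value, at 22.7 and 19.7 FPKM. The log2 ratio of Kif4, 0.20 (implied standard error 0.19), had a p of 0.275 in the authors' deposited table (interval -0.16 to 0.57). Kif22, which pushes chromosomes outwards, stood at 18.1 and 18.4 FPKM. Kif2c, a microtubule depolymerase at centromeres, stood at 14.5 and 15.7 FPKM with a failed test. Motor genes thus had values in both directions, and the 4 tested ones each had an interval across 0.

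The spindle assembly genes Tpx2, which encodes an activator of Aurora A, at 79.0 and 73.0 FPKM, and Nusap1, which encodes a microtubule bundling protein, at 122 and 115 FPKM, both had failed tests. Central spindle and cytokinesis genes were the most even group. Kif20a stood at 20.8 and 20.6 FPKM, Kif23 at 36.5 and 35.4 FPKM and Prc1, which bundles the overlapping microtubules of the central spindle, at 69.7 and 68.4 FPKM. Kif20a and Kif23 encode the motors that bring cytokinesis factors to that midzone. Kif23 had the smallest implied standard error of the 20 tested genes, 0.09, and an interval from -0.13 to 0.21. Ect2, which encodes the exchange factor that switches on the contractile ring, stood at 56.1 and 57.5 FPKM with a failed test.

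**Figure D3:**
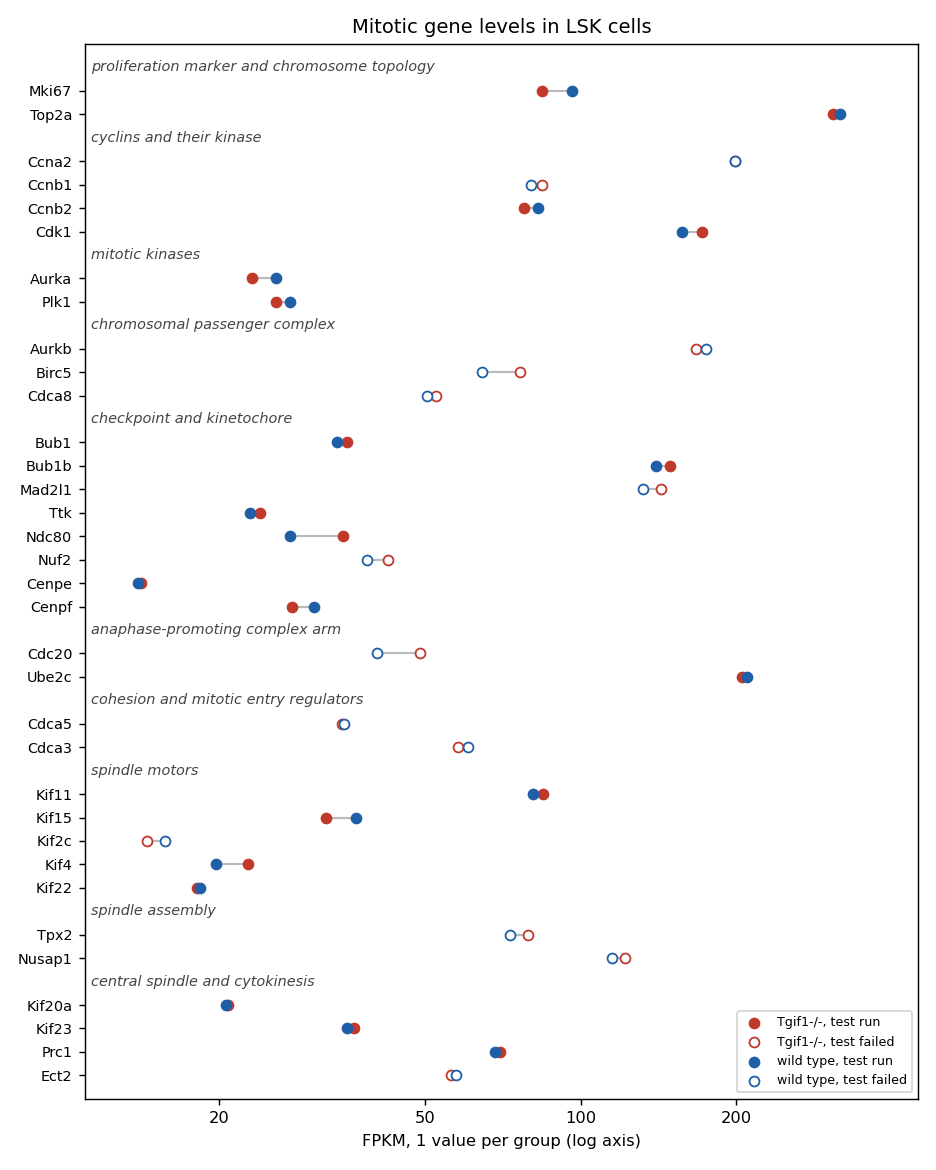
FPKM of the 34 mitotic genes by role on a log axis, 1 value per group (red, group labelled Tgif1-/-; blue, group labelled wild type; open circles, failed tests; grey lines join the values of a gene). Levels span 13.9 to 317 FPKM between genes, while the widest gap within a gene is that of Ndc80, at 34.7 and 27.4 FPKM.

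Levels between genes differed far more than levels between groups. Because FPKM is scaled to transcript length, genes can be ranked within a group. In the group labelled wild type, Top2a, Ube2c, Ccna2, Aurkb and Cdk1 led with 317, 210, 199, 175 and 157 FPKM, and Kif4, Kif22, Kif2c and Cenpe closed the order with 19.7, 18.4, 15.7 and 13.9 FPKM. With no value per sample, it cannot be said which neighbours in this order differ beyond their spread. No gene moved by more than 4 places between the groups, and the 3 most abundant and the 3 least abundant kept their places in both. Every one of the 34 genes lay above the 68th percentile of the table in the group labelled wild type, from percentile 68.7 (Cenpe) to 98.2 (Top2a). In 6 cases the table lists the same interval for a mitotic gene and a neighbour, so reads of the pair may have been shared. These are Ccna2 with Exosc9, Cdc20 with Elovl1, Ube2c with Tnnc2, Kif4 with Pdzd11, Nusap1 with Oip5, and Kif20a with Cdc23.

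Other genes of mitosis were 109 in 5 lists, of which 73 were tested and 36 had failed tests. None was called by the q of the Cuffdiff test (0.662% of all tested genes were), and 1 had an unadjusted p under 0.05 (5.41% of all tested genes did). The tested genes had a median log2 ratio of 0.01, with 37 higher and 36 lower. Among the failed tests 11 values were higher and 25 lower, so that 48 of the 109 were higher and 61 lower, with a median log2 ratio of -0.02. That 1 gene was Zwilch, part of the complex that recruits dynein to kinetochores, at 14.5 FPKM under the Tgif1-/- label against 21.1 FPKM under the WT label. Its log2 ratio was -0.54 (implied standard error 0.25), and the authors' deposited table lists a p of 0.0316 and a Cuffdiff q of 0.756. Mis12, a scaffold of the kinetochore, had the next smallest p in its list, 0.0562 in the authors' deposited table, and stood at 42.4 and 32.3 FPKM. In that list of 33 kinetochore and checkpoint genes, 22 were tested, with 12 higher, 10 lower and a median log2 ratio of 0.01. The listed intervals of Zwilch and Mis12 are shared with the neighbours Lctl and Derl2. Of genes named below, Ncapg shares its listed interval with Lcorl, Foxm1 with 4933413G19Rik, and Lin37 with BC053749 and Hspb6.

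In the list of the anaphase-promoting complex and separase, 11 of 17 genes were tested, with 4 higher, 7 lower and a median log2 ratio of -0.03, and 5 of all 17 had higher values and 12 lower. Its subunits Anapc2 and Cdc16 had the smallest p, at 35.5 and 30.2 FPKM and at 31.0 and 33.5 FPKM. Condensin and cohesin, the rings that compact chromosomes and hold sisters together, had 10 of 18 tested, with 4 higher, 6 lower and a median of -0.01, and 5 of all 18 had higher values and 13 lower. Stag1, a cohesin subunit, stood at 153 and 160 FPKM and the condensin subunit Ncapg at 58.4 and 53.3 FPKM. Of the spindle and cytokinesis list, 15 of 24 were tested, with 7 higher, 8 lower and a median of 0.00. Haus4, an augmin subunit, stood at 22.8 and 28.1 FPKM and the spindle gene Ckap2l at 26.1 and 23.3 FPKM. By Cuffdiff, none of these 3 lists held a called gene (0.662% of all tested genes) or 1 with an unadjusted p below 0.05 (5.41%). At those shares few or none would be counted in lists of this size, so these counts say little.

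Regulators that read the CHR are in the list of mitotic entry and transcription, in which 15 of 17 genes were tested. Of the 15, 10 were higher and 5 lower (median log2 ratio 0.06), and of all 17, 10 had higher values and 7 lower. By Cuffdiff, none was called (0.662% of all tested genes were) or had an unadjusted p below 0.05 (5.41% did). Among 15 genes these counts say little. The MuvB genes Lin54, whose product touches the CHR, and Lin9 had the smallest p, at 28.6 and 24.7 FPKM and at 15.6 and 14.1 FPKM, with intervals from -0.06 to 0.48 and from -0.09 to 0.40. Of the other MuvB genes in the list, Lin52 stood at 5.29 and 4.81 FPKM. Lin37 had the lower value under the Tgif1-/- label, at 90.3 and 101 FPKM, with a failed test. Foxm1 stood at 47.2 and 45.4 FPKM and Mybl2, which encodes B-Myb, at 31.9 and 31.4 FPKM. These 2 genes, named after their values were seen, had log2 ratios of 0.06 and 0.03.

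**Figure D4:**
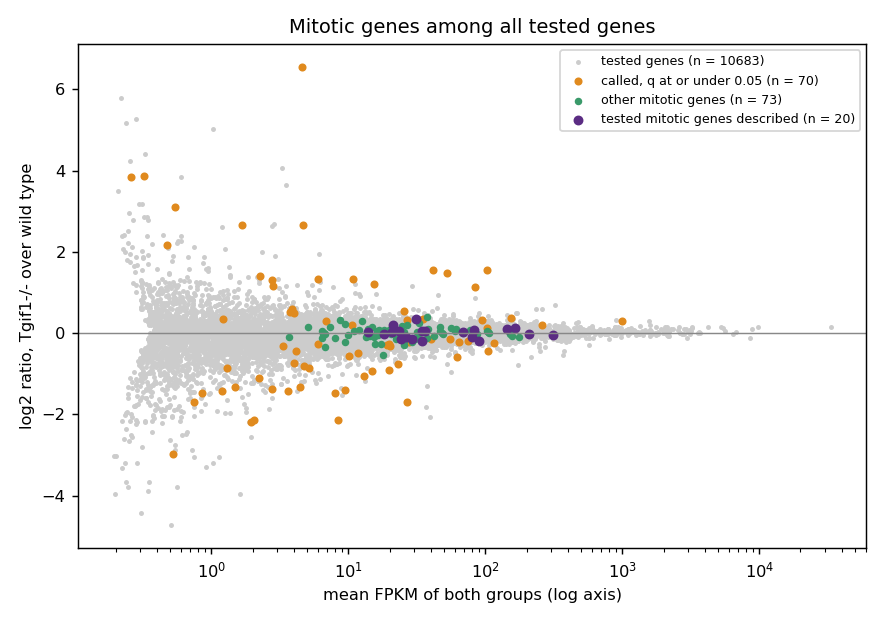
Log2 ratio (group labelled Tgif1-/- over group labelled wild type) against the mean FPKM of both groups (log axis) for 10683 tested genes with values above 0 in both groups (grey), the 70 called genes among them (orange), 73 other mitotic genes (green) and the 20 tested mitotic genes (purple). The purple points lie between -0.19 and 0.34.

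Some markers of blood cell types did differ between the same groups. The marker lists were chosen with earlier results of these data known, so their contrast with the mitotic lists is not a test. B cell markers also had larger errors, with a median implied standard error of 0.32 against 0.20 for the tested mitotic genes. Among B cell markers, 4 of 8 tested were called (0.662% of all tested genes were) and all 4 were lower in the group labelled Tgif1-/-. Of the 8, 7 had lower values, and Cd79b was even at 27.8 and 27.6 FPKM. The list summed to 58.3 FPKM under the Tgif1-/- label against 119.7 FPKM under the WT label. Of 7 tested mast cell and basophil markers, 4 were called higher, and the list summed to 389 and 157 FPKM. No gene was called among 8 tested erythroid, 6 tested megakaryocyte and 5 tested neutrophil markers by the Cuffdiff test. At an unadjusted p below 0.05 were 1, 3 and 4 of them (5.41% of all tested genes were). The 1 erythroid gene was higher under the Tgif1-/- label. Of the 3 megakaryocyte genes, 2 were higher and 1, Ppbp, was lower, at 4.61 and 9.54 FPKM. The erythroid, megakaryocyte and neutrophil lists summed to 734 and 598 FPKM, to 221 and 144.5 FPKM, and to 3603 and 3969 FPKM. The neutrophil sum is mostly Mpo, with a failed test, at 3060 and 3290 FPKM. All 8 neutrophil markers had lower values under the Tgif1-/- label, the 4 at an unadjusted p below 0.05 included, and the 5 tested ones had a median log2 ratio of -0.95. Of 6 T cell markers, 3 were tested and none was called, the list summed to 26.8 and 31.8 FPKM, most of it Lck with a failed test, and Cd3g was listed at 0 under the Tgif1-/- label. The part of cell makeup in the mitotic values was not tested. Over tested genes, the marker lists had median log2 ratios from -1.44 (B cells) to 1.13 (mast cells and basophils). The 34 mitotic genes taken as 1 list and the 5 other mitotic lists stayed between -0.03 and 0.06. Role groups within the 34 went as low as -0.12, for the 2 mitotic kinases.

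**Figure D5:**
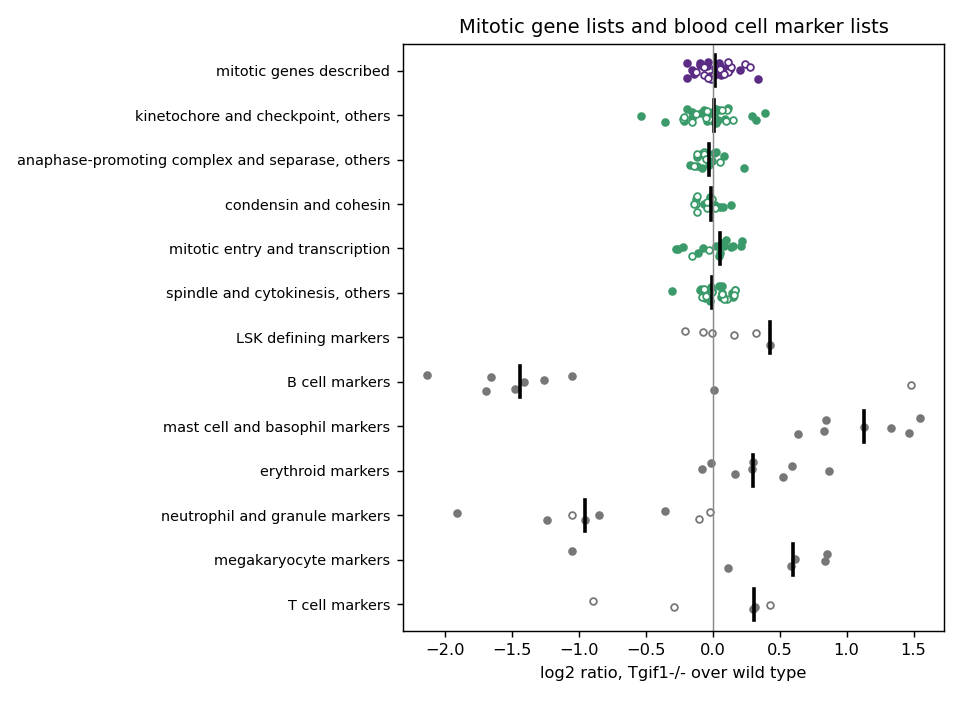
Log2 ratio (group labelled Tgif1-/- over group labelled wild type) of each gene in the mitotic lists (purple and green) and blood cell marker lists (grey). Filled points were tested, open points were not, and black bars are medians of tested genes (1 gene for the LSK markers); the 34 mitotic genes lie between -0.19 and 0.34 and the tested B cell markers reach -2.13.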

How the data were processed

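Per the submitters' processing notes, reads were aligned with TopHat and groups compared with Cuffdiff, both without a version. The notes name the human build hg19, while the identifiers are mouse. The deposited table holds 1 FPKM value per group, computed by the authors, with their log2 fold change (wild type on top), a test statistic (a score) and the deposited p-value and q-value. Failed tests are deposited with a fold change of 0 and a p of 1, so ratios were computed here from the FPKM values, with the group labelled Tgif1-/- on top.

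The standard error was taken as the log2 ratio over the deposited statistic, and intervals as 1.96 standard errors on either side. A gene was called where tested with a deposited q at or under 0.05. Members and lists were chosen with earlier results of these data known. All 34 members are named, with full statistics for the 4 smallest p and the 3 highest and 3 lowest ratios. Of each other mitotic list, the 2 genes with the smallest p and at least 1 FPKM are named, and 3 symbols were matched by RefSeq synonyms. Depth is unknown. Only the code for the error floor and for adjusting p-values to q-values was checked on simulated log2 ratios. Python 3.11.15, pandas 2.3.3, numpy 2.4.6, scipy 1.17.1 and matplotlib 3.10.9 were used.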

Additional observations from a re-analysis of the deposited data

How the results depend on the processing

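No mitotic gene of either set was called at a q of 0.01 or 0.1, with at least 1 or 5 FPKM in both groups, with a 1.5-fold minimum, or with each implied error raised to the median of its expression bin (20 bins) where it lay under it. With that floor the smallest p among the 20 tested mitotic genes was 0.126. Their median log2 ratio ranged from 0.02 to 0.05 with pseudocounts of 0.1 and 1, filters on low values, failed tests included, Ndc80 left out (chosen after seeing the data) or centring. That of the other mitotic genes ranged from -0.02, with failed tests included, to 0.04, centred. Centring on the median of all tested genes (-0.03) turned 3 of 34 ratios, none of them called, from just under to just over 0: 0.0313 for Ccna2, 0.0207 for Cdca5 and 0.0121 for Kif22. This follows from the size of the shift. A pseudocount of 1 turned none. Leaving out a sample was not possible with 1 value per group. With no values per sample, the errors rest on the authors' model, and 14 members have none.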
